A study of Mus musculus with 6 samples.

Results

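Small nucleolar RNAs and small Cajal body RNAs were examined in the islet RNA-seq of mice with and without *Parn* in β cells. They were taken as every row of the deposited table whose gene name starts with Snora, Snord or Scarna followed by a digit, a rule that uses names and no measured value. It gave 150 of the 55060 rows, of which 42 were Snora, 99 were Snord and 9 were Scarna. The table labels 149 of them as snoRNA or scaRNA and *Snord43* as a miRNA, and 3 gene names are each held by 2 rows.

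RNA came from islets of 3 Ctrl and 3 cKO samples, isolated at 12 weeks of age per the study. The cKO mice were *Ins2-cre*; *Parn f/f*, in which Cre made under the *Ins2* promoter removes exon 7 of *Parn* in β cells, and the Ctrl mice were *Parn f/f* animals and other littermates, so that the Ctrl group may hold more than 1 genotype. The labels do not say whether the samples of a genotype came from separate animals or from pools, and the p-values measure only the spread between these samples. Cells of the islet other than β cells keep *Parn* and give RNA to every sample.

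Snora RNAs are H/ACA box RNAs, which guide the conversion of uridine to pseudouridine in ribosomal RNA, and Snord RNAs are C/D box RNAs, which guide 2′-O-methylation. Scarna RNAs carry the boxes of either class and guide the same changes on spliceosomal snRNAs in Cajal bodies. Most are cut out of introns of host genes, which often encode ribosomal proteins, and their 3′ ends are trimmed by exonucleases. *Parn* is a poly(A)-specific 3′ exonuclease, and it is known to remove the short oligo(A) tails that *Tent4b* adds to H/ACA RNAs and other non-coding RNAs, telomerase RNA among them.

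The sequences below are those of the RNAs on which the results turn. They were read from the transcripts of GENCODE M21 on GRCm38, which gives all 150 rows the same coordinates as the table, and are written 5′ to 3′ with T for U. The first group are the H/ACA RNAs with the highest level (*Snora31*) and those with a mean of at least 5 reads and every cKO sample below every Ctrl sample (*Snora57* and *Snora41*), and capitals mark the ACA box that lies 3 bases from the 3′ end. *Snora31* lies at chr14:75847905-75848034 on the plus strand, *Snora57* at chr19:8888538-8888685 on the minus strand and *Snora41* at chr1:63179004-63179135 on the plus strand.
Snora31: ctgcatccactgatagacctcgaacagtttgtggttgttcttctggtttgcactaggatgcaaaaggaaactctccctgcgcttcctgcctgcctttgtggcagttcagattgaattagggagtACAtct
Snora57: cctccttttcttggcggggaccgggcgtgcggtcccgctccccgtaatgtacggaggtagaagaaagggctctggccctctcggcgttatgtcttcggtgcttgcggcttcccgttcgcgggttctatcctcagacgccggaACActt
Snora41: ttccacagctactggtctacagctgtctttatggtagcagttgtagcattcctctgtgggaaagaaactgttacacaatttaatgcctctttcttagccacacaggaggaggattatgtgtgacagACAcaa

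The C/D group holds the RNA with the highest level of all (*Snord104*), the 3 RNAs that share 1 host gene (*Snord49a*, *Snord49b* and *Snord65*) and a member of the *Snord116* cluster, which was listed at 0 throughout. Capitals mark the C box TGATGA near the 5′ end and the D box CTGA near the 3′ end. *Snord104* lies at chr11:106500993-106501062, *Snord49a* at chr11:62603450-62603521, *Snord49b* at chr11:62603079-62603150 and *Snord65* at chr11:62604515-62604586, all on the plus strand, and *Snord116l1* at chr7:59894620-59894713 on the minus strand.
Snord104: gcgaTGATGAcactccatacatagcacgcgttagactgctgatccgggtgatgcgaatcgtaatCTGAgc
Snord49a: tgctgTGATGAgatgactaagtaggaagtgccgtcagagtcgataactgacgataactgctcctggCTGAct
Snord49b: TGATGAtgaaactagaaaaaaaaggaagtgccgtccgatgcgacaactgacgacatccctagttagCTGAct
Snord65: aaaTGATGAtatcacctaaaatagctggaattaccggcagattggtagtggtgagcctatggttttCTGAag
Snord116l1: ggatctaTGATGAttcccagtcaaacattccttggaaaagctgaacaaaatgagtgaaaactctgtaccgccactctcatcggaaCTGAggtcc

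*Snord49a* and *Snord49b* share the run aggaagtgccgtc of 13 bases, whereas the longest run that either shares with *Snord65* is 7 bases and covers the C box. The names and the boxes went together over the whole set. On the given strand, ACA stood 3 bases from the end in 35 of the 42 Snora rows, in 0 of the 99 Snord rows and in 2 of the 9 Scarna rows, against 37 of all 150 rows. The letters TGATGA were present within the first 20 bases in 70 of the 99 Snord rows, in 0 of the Snora rows and in 4 of the Scarna rows. The letters CTGA were present within the last 15 bases in 92 of the Snord rows, 3 of the Snora rows and 5 of the Scarna rows. Median lengths were 132.5 bases for Snora (range 121 to 205), 84 for Snord (64 to 238) and 140 for Scarna (70 to 414).

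These RNAs were a very small part of each library. Levels are given as FPKM, the fragments on a row scaled by its length and by the library size, and the whole reads behind them could be read back from the steps between the values. The libraries held 15731223 to 18085944 reads, and 1 read on a row of 70 bases was worth an FPKM of 0.790 to 0.908. Over all 150 rows and 6 samples there were 2003 reads, which is 0.00173% to 0.00238% of the reads of a library. Snord rows took 65.4% of them, Snora rows 27.4% and Scarna rows 7.24%. *Snord104* alone held 43.9% of the Snord reads and *Snora31* alone 47.6% of the Snora reads. The kit is named for mRNA, mature RNAs of these classes end without a long poly(A) tail, and the priming step is not given in the sources used here. Reads on a row inside an intron can come from the mature RNA, from a tailed intermediate or from the unspliced host, and these cannot be told apart in a table of levels per gene.

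Of the 150 rows, 59 were above 0 in at least 1 sample (15 Snora, 38 Snord and 6 Scarna), 19 were above 0 in every sample (5 Snora, 12 Snord and 2 Scarna) and 91 were at 0 in every sample. In Ctrl 39, 43 and 44 rows were above 0, and in cKO 40, 33 and 37 (samples are given here and below in the order of their replicate numbers). The genotypes thus overlapped, and the means were 42.0 ± 2.65 rows for Ctrl and 36.7 ± 3.51 for cKO (SD, n = 3 each).

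By class, 11, 12 and 11 Snora rows were above 0 in Ctrl and 12, 9 and 7 in cKO. For Snord the numbers were 24, 27 and 28 in Ctrl and 24, 20 and 26 in cKO. For Scarna they were 4, 4 and 5 in Ctrl and 4, 4 and 4 in cKO. In each class the ranges of the genotypes overlapped or met. Rows with at least 3 reads numbered 27, 26 and 28 in Ctrl and 24, 21 and 22 in cKO, ranges that did not overlap. In all, 9 rows were above 0 in Ctrl samples only and 2 in cKO samples only. The latter, *Snora19* and *Snord11*, held 1 read each, and the 9 held from 1 read (*Scarna9* among others) to 16 (*Snora47*). Over all genes, 22790 to 23771 were above 0 in Ctrl samples and 23122 to 23792 in cKO samples. Counts by at least 3 reads and by genotype were not made over all genes, so nothing is read from them.

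Which rows were above 0 went with where they lie. Of the 74 rows that no annotated exon of another gene covers, 51 were above 0 in at least 1 sample, and these held 1945 of the 2003 reads. Of the 15 rows partly under such exons, 8 were above 0, with 58 reads, and exons covered 1.33% to 83.78% of their length. Of the 61 rows wholly under exons of other genes, on either strand, 0 were above 0 in any sample.

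The contrast was present in both box classes. For Snora, 12 of 13 rows free of exons were above 0, against 3 of 7 partly covered and 0 of 22 wholly covered. For Snord, 35 of 56 free rows were above 0, against 3 of 4 partly covered and 0 of 39 wholly covered. Of the Snora rows 29 of 42 lay under an exon at least in part, against 43 of the 99 Snord rows and 4 of the 9 Scarna rows.

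**Figure D1:**
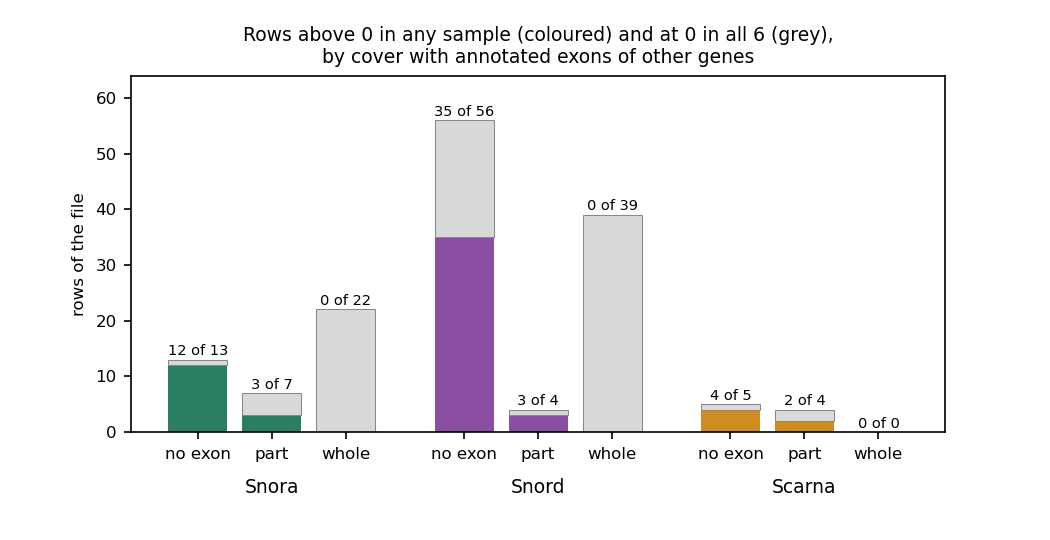
Number of rows of each class (y axis) by their cover with annotated exons of other genes (x axis: no exon, partly or wholly covered). The coloured part of a bar is the rows above 0 in at least 1 of the 6 samples and the grey part the rows at 0 in all. The grey bars fill the wholly covered groups, with 0 of 22 Snora and 0 of 39 Snord rows above 0.

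The wholly covered rows lay in genes that were themselves measured. A host gene was in the table for 59 of the 61, with a median FPKM of 20.5, a highest FPKM of 356, for *Rpl10* around *Snora70*, and an FPKM of at least 100 in 16 cases (*Rpl10* encodes a ribosomal protein; *Snora70* was chosen after its values were seen). Other short RNAs in the table had the same feature. For the other snoRNA and scaRNA rows, 185 of 1239 free of exons were above 0 and 0 of 119 wholly covered; for miRNA rows, 319 of 1612 and 3 of 404; and for snRNA rows, 232 of 1340 and 0 of 27. How the authors assigned a read that fits both a small RNA and an exon is not given in the sources used here, so these rows are said to be listed at 0 and nothing is drawn about their RNA.

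A second group at 0 was the *Snord116* cluster, whose 17 rows made up 17 of the 23 rows that were at 0 without being under an exon. These C/D RNAs lie in introns of *Snhg14*, a long transcript of the imprinted Prader-Willi region, and hold only 4 distinct sequences, so that a read could match several rows. *Snhg14* itself had an FPKM of 0.203 to 0.288. Without the cluster, 51 of 57 rows free of exons were above 0. Across the 50 of these that lie in introns, the level of the small RNA and that of its host had a Spearman rho of 0.39, a description over rows that share libraries and, in some cases, hosts.

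Among single RNAs, *Snord104* had the highest level. Its human counterpart guides methylation of the large ribosomal RNA, and the row lies between genes in this annotation. The Ctrl samples had an FPKM of 63.0, 83.5 and 86.7 and the cKO samples one of 67.5, 75.6 and 102.7, from 77 to 130 reads. The genotypes overlapped, with a log2 fold change of 0.07 on the log2(FPKM + 1) scale (standard error 0.193, 95% interval -0.40 to 0.53, limma).

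*Snora31* was the highest H/ACA RNA. It lies in an intron of *Tpt1*, a gene for a translation-associated protein of very high level. Its FPKM was 22.9, 21.03 and 19.9 in Ctrl and 16.6, 22.6 and 14.5 in cKO, from 34 to 52 reads. One cKO sample stood among the Ctrl values, and limma gave a log2 fold change of -0.26 (standard error 0.162) at an adjusted p of 0.799. Without cKO replicate 2 it was -0.43 and without cKO replicate 3 it was -0.13. *Tpt1* had an FPKM of 407 ± 28.2 in Ctrl and 338 ± 20.1 in cKO (SD, n = 3 each), which is -0.27 on the log2 scale, at an adjusted p of 0.692 by limma.

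The next levels were those of C/D RNAs in introns, and their ranges over the samples overlapped each other. *Snord49a* had a mean FPKM of 11.1 ± 2.85 in Ctrl and 15.03 ± 7.76 in cKO (SD, n = 3 each), and *Snord72*, in *Rpl37*, 9.81 ± 5.18 and 10.3 ± 4.19. *Snord58b*, in *Rpl17*, had 6.21 ± 3.84 and 8.65 ± 8.37. For each of the 3, the difference between the genotypes was smaller than the SD of its cKO samples.

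Over all genes, limma on log2(FPKM + 1) tested the 21211 rows with a mean FPKM of at least 0.1. Of these, 4.33% were higher and 3.07% lower in cKO before adjustment (p under 0.05), and after adjustment the share was 0% (0 genes, also 0 with limma voom on the reads). Of the 150 small RNA rows, 57 passed the filter on level (14 Snora, 37 Snord and 6 Scarna), and 14 of these had a mean under 1 read. None had an adjusted p under 0.05, and the smallest was 0.385. At an unadjusted p under 0.05, 0 were higher and 7 lower in cKO, which is 0% and 12.3% of those tested. Rows with every cKO sample above every Ctrl sample numbered 0, against 7.11% of all genes, and rows with every cKO sample below every Ctrl sample numbered 5, or 8.77%, against 6.03%.

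The median log2 fold change was -0.28 over the 57 rows, -0.47 over the 14 Snora, -0.17 over the 37 Snord and -0.15 over the 6 Scarna, against -0.01 over all genes tested. In 9 of the 57 rows 1 genotype was wholly at 0, and with these set to the bound that 3 reads over the genotype allow, the medians were -0.01, -0.47, 0 and -0.01. Rows at 0 in a whole genotype numbered 2 Snora, 6 Snord and 1 Scarna, and only these could move a median. The unmoved Snora median is therefore no sign of a firmer result, and the bound does not set the classes apart. The Snord median was not below 0 with it. Since rows passed the filter in part through the genotype in which they were higher, these counts and medians are descriptions of the rows.

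**Figure D2:**
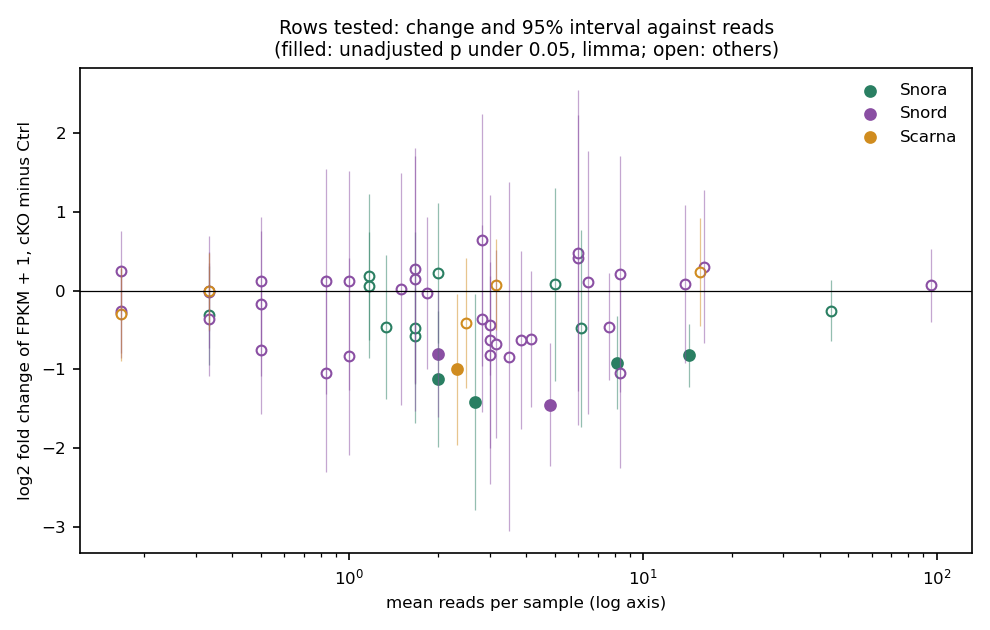
Log2 fold change of FPKM + 1, cKO minus Ctrl (y axis), against the mean reads per sample (x axis, log scale) for the 57 rows tested, coloured by class, with 95% intervals from limma. The 7 filled points, with an unadjusted p under 0.05, are all below 0, and all but Snora57 have a mean under 10 reads.

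The 7 lower rows were 4 Snora (*Snora57*, *Snora41*, *Snora21* and *Snora47*), 2 Snord (*Snord43* and *Snord89*) and *Scarna17*. Only *Snora57* had a mean of at least 10 reads. Its FPKM was 9.29, 6.87 and 6.50 in Ctrl and 3.85, 3.11 and 4.48 in cKO, from 24, 16 and 16 reads and 10, 8 and 12 reads. The highest cKO value was thus under the lowest Ctrl value. By limma the difference was -0.83 on the log2 scale (standard error 0.167, 95% interval -1.23 to -0.43), at an unadjusted p of 0.00205 and an adjusted p of 0.385. In limma voom on the reads the unadjusted p was 0.0574. The row lies between genes on its own strand and across from *Lbhd1* on the other, and whether the counting used strand is not given in the sources used here.

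*Snora41* lies in an intron of *Eef1b2*, which encodes a translation elongation factor. Its FPKM was 5.21, 5.78 and 4.10 in Ctrl and 1.29, 2.18 and 3.35 in cKO, from 9 to 12 reads and 3 to 8 reads. The groups did not overlap, and limma gave a log2 fold change of -0.92 with a standard error of 0.247 and an adjusted p of 0.488. *Eef1b2* itself had an FPKM of 70.7 ± 5.05 in Ctrl against 62.7 ± 5.01 (SD, n = 3 each), or -0.17 on the log2 scale. By voom on the reads the unadjusted p of *Snora41* was 0.0693.

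*Snord43*, in an intron of *Rpl3*, had the smallest limma p of the Snord rows. Its human counterpart guides methylation of the small ribosomal RNA. The row here is labelled as a miRNA, and it held neither TGATGA in its first 20 bases nor CTGA in its last 15. Its values rested on few reads, 13, 7 and 4 in Ctrl and 2, 1 and 2 in cKO. The FPKM was 6.90, 4.12 and 2.23 in Ctrl and 1.05, 0.533 and 1.02 in cKO. The difference was -1.45 (standard error 0.327, limma adjusted p = 0.408). *Rpl3* had a log2 fold change of -0.36 (standard error 0.185), and *Snord83b*, in another intron of *Rpl3*, one of -0.68 (standard error 0.495, mean of 3.17 reads).

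The remaining 4 each had a mean under 3 reads. *Snora21*, in *Rpl23*, had 1, 4 and 6 reads in Ctrl and 1, 0 and 0 in cKO, and *Snord89*, in *Gm15832*, 2, 2 and 5 against 2, 0 and 1. Both are counted without overlap of the genotypes, although the lowest Ctrl and the highest cKO sample held the same number of reads and differed by the library size alone. *Snora47*, in *Zbed3*, had 7, 0 and 9 reads in Ctrl and was listed at 0 in all cKO samples, so that 1 Ctrl sample was at 0 as well. *Scarna17*, whose human counterpart guides changes on spliceosomal snRNAs, had 3, 3 and 4 reads in Ctrl and 1, 3 and 0 in cKO. At such numbers a change of a few reads moves a row across the threshold.

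**Figure D3:**
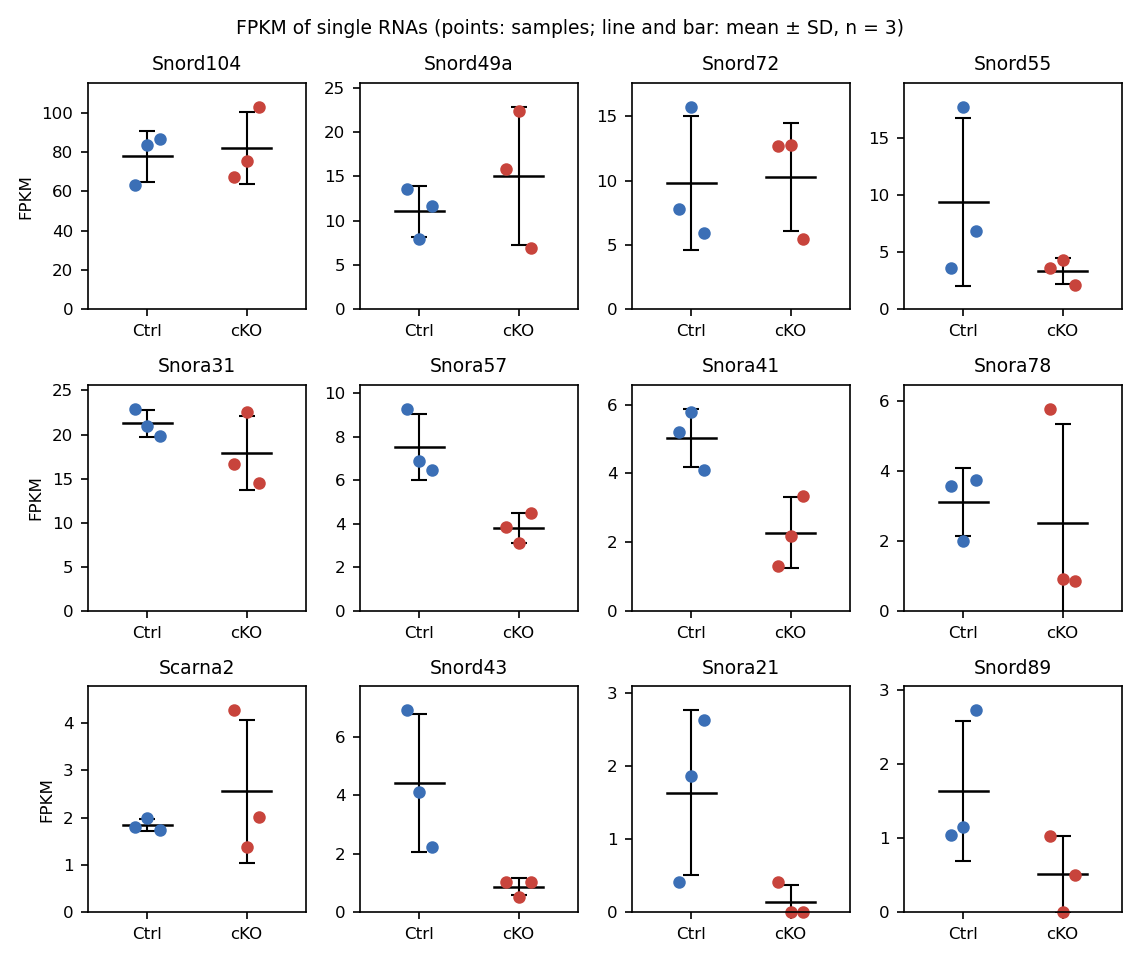
FPKM (y axis, from 0) of 12 small RNAs in the 3 Ctrl (blue) and 3 cKO (red) samples; points are samples, and the line and bar are the mean and SD. Snora57, Snora41 and Snord43 show no overlap of the genotypes, whereas Snord104, Snord49a, Snord72, Snora31 and Snora78 overlap.

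At a mean of at least 5 reads there were 15 rows, which held 78.3% of the reads. Of the 5 Snora among them (*Snora31*, *Snora57*, *Snora41*, *Snora78* and *Snora17*), 4 had a lower mean log2 level in cKO, 2 of these at an unadjusted p under 0.05, with a median log2 fold change of -0.48. Of all 21211 genes tested, 11355 had a lower mean log2 level and 3.07% were lower at that p. Of the 9 Snord, 7 had a higher mean log2 level, 0 passed at an unadjusted p under 0.05, and the median was 0.11. For 2 of these 7, *Snord49b* and *Snord73a*, the mean FPKM was lower in cKO, so their direction depended on the scale. The single Scarna, *Scarna2*, had a log2 fold change of 0.24.

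The spread within a genotype was wide in several of them. *Snora78*, in *Snhg9*, had an FPKM of 3.58, 1.99 and 3.76 in Ctrl, against 5.78, 0.899 and 0.864 in cKO, so that 1 cKO sample was the highest and the others the lowest of all 6. The row lies across from *Rps2* on the other strand, which had a mean FPKM of 180, against 0.0579 for *Snhg9*. As for *Snora57*, whether the counting used strand is not given in the sources used here. *Snora17* had 4.78, 0.963 and 0.911 in Ctrl and 3.88, 1.31 and 1.26 in cKO. *Snord55* had 3.63, 17.7 and 6.85 in Ctrl and 3.603, 4.37 and 2.10 in cKO. Ctrl replicate 2 alone stood high for *Snord55*, and its log2 fold change of -1.05 had a 95% interval of -2.26 to 0.16. Without that sample it was -0.50.

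*Scarna2*, a long Cajal body RNA whose human counterpart guides changes on a spliceosomal snRNA, lies between genes and had an FPKM of 1.80, 1.996 and 1.74 in Ctrl, against 4.26, 1.39 and 2.003 in cKO. The 3 Ctrl samples were close together, and cKO replicate 1 stood above the other 5. Without it, the log2 fold change turned from 0.24 to -0.09.

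The 3 C/D RNAs of the host *2410006H16Rik*, whose sequences are given above, had different orders of the samples. *Snord49a* had 17, 9 and 14 reads in Ctrl and 20, 28 and 9 in cKO. *Snord49b* had 1, 12 and 7 in Ctrl and 8, 3 and 8 in cKO, and *Snord65* had 11, 3 and 1 in Ctrl and 7, 12 and 2 in cKO. Ctrl replicate 1 was thus the lowest for *Snord49b* and high for *Snord65*, while the host had an FPKM of 47.9, 48.2 and 36.0 in Ctrl, against 41.2, 48.6 and 33.5 in cKO. The log2 fold changes were 0.30, 0.11 and 0.48 for the small RNAs and -0.10 for the host, each with an interval across 0.

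Summed over its rows, the H/ACA class was lower in every cKO sample than in every Ctrl sample. The summed Snora FPKM was 53.0, 44.9 and 45.5 in Ctrl and 36.9, 33.0 and 26.5 in cKO, a mean of 47.8 ± 4.51 and 32.1 ± 5.23 (SD, n = 3 each). The difference was -0.58 on the log2 scale, from 124, 95 and 102 reads against 87, 76 and 64 reads, and without *Snora31* it was -0.95. The C/D class did not separate, with a summed Snord FPKM of 145, 214 and 173 in Ctrl, against 148, 170 and 171 in cKO, and a difference of -0.11. The summed Scarna FPKM was 5.05, 6.55 and 7.39 in Ctrl and 5.82, 4.42 and 3.62 in cKO, with a difference of -0.46. This difference rested on the scale, since in reads scaled by library size alone it was -0.06 and in summed reads 0.03, and without *Scarna2* the summed FPKM differed by -1.15.

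The ratio of the summed Snora to the summed Snord FPKM compares the classes within a library, so the library size drops out. It was 0.366, 0.210 and 0.264 in Ctrl and 0.2497, 0.194 and 0.155 in cKO. The ranges overlapped, since cKO replicate 1 lay above Ctrl replicate 2, and the difference of the mean log2 ratios was -0.47. Without Ctrl replicate 1 it was -0.26. A difference between the classes was thus not set apart from the spread between samples. These sums are descriptions, with no p, and for any single value an exact two-sided permutation test of 3 samples against 3 cannot fall below 0.1.

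**Figure D4:**
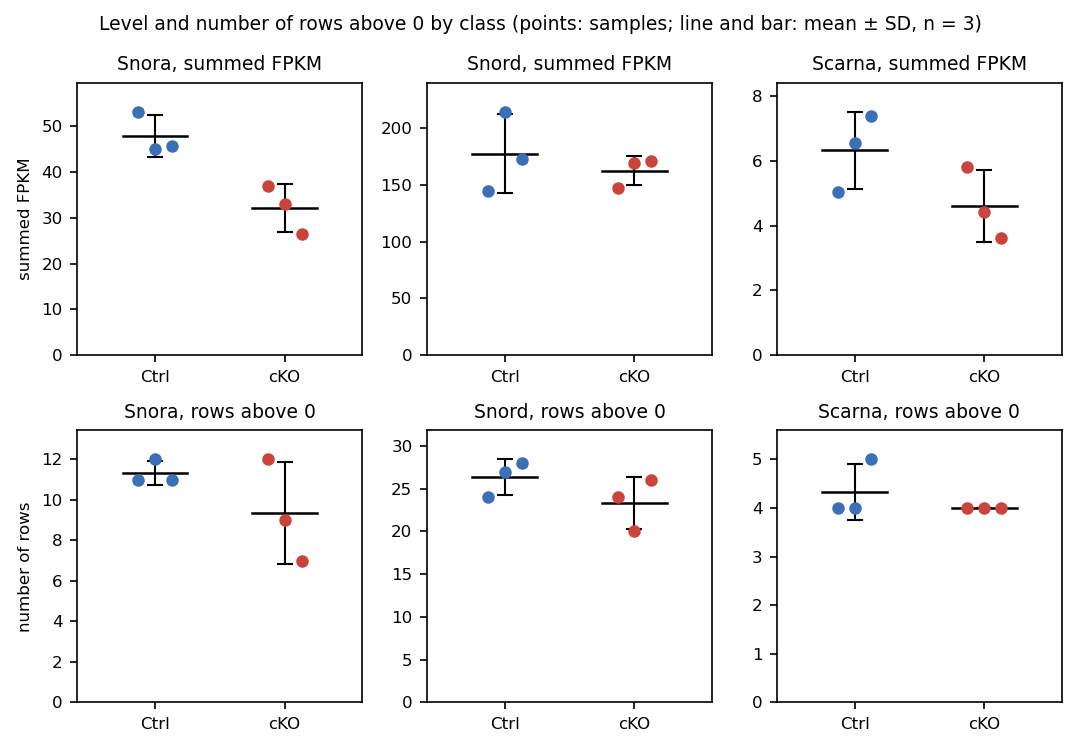
Summed FPKM (upper row) and number of rows above 0 (lower row) of the Snora, Snord and Scarna classes in the Ctrl (blue) and cKO (red) samples; points are samples, and the line and bar are the mean and SD, n = 3. The summed Snora FPKM is 44.9 to 53.0 in Ctrl and 26.5 to 36.9 in cKO, and the other 5 panels overlap or meet.

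Marker genes of the islet and of other cells were read beside these sums. All 10 islet markers were above 0 in every sample. Their summed FPKM was 266674 to 303029 in Ctrl and 220622 to 245002 in cKO, so it was lower in every cKO sample than in every Ctrl sample. Of the 10, 0 passed an unadjusted p under 0.05 by limma. Every cKO sample was below every Ctrl sample for 2 of them (20% against 6.03% of all genes) and above for 0 (against 7.11%). The 7 acinar markers, of digestive enzymes, summed to 6650 to 18329 in Ctrl and 8277 to 30219 in cKO, the 3 stromal markers to 3.13 to 5.58 and 4.84 to 17.98, the 3 endothelial markers to 26.7 to 29.0 and 28.6 to 37.5, the 3 neuronal markers to 31.8 to 38.4 and 34.4 to 40.2, and the 4 leukocyte markers to 30.3 to 580 and 29.5 to 67.1. At an unadjusted p under 0.05 by limma, 1 endothelial and 1 stromal marker were higher and 1 leukocyte marker lower in cKO, and the 7 acinar markers all had a higher mean log2 level (median log2 fold change 0.77) with 0 past that p. No marker was at 0 in any sample. Their part in the Snora sums was not tested, and in bulk islets fewer cells of a type and less RNA per cell cannot be told apart.

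Host genes, which are other RNAs, were read beside the small RNAs. Many had far higher levels, but not all: *Snhg9*, host of *Snora78*, had 1 read in Ctrl replicate 2 and 0 in every other sample. Of the 42 hosts tested for the rows tested, 2 were higher and 4 lower in cKO at an unadjusted p under 0.05 by limma. That is 4.76% and 9.52% against 4.33% and 3.07% of all genes, with a median log2 fold change of -0.08. Every cKO sample was above every Ctrl sample for 3 hosts (7.14% against 7.11% of all genes) and below for 8 (19% against 6.03%). Of the 8 hosts tested for the rows with a mean of at least 5 reads, 6 had a lower mean log2 level in cKO, among them *Tpt1*, *Rpl37* and *Eef1b2*. Small RNA and host did not always lie on the same side: *Snord72* had a log2 fold change of 0.09 and its host *Rpl37* one of -0.33.

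**Figure D5:**
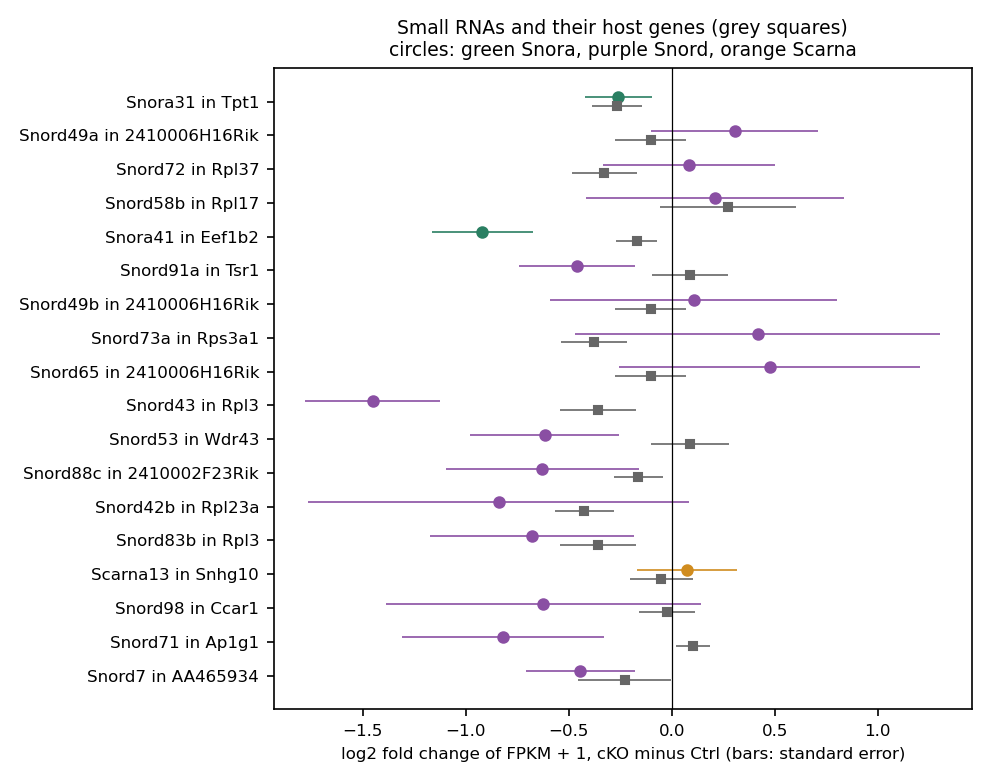
Log2 fold change of FPKM + 1, cKO minus Ctrl (x axis, bars are the standard error of the limma fit), of the small RNAs with a mean of at least 3 reads (circles, coloured by class) and of their host genes (grey squares). One pair is not shown, and Snora78 is absent because its host Snhg9 was not tested. The bars of the small RNAs are longer than those of their hosts in all 18 pairs shown; Snora31 and Tpt1 lie together at -0.26 and -0.27.

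Long non-coding hosts, with some protein-coding hosts such as *Eef1b2*, *Nop56*, *Rpl3* and *Rpsa*, were described as a list of 25 genes, of which 23 were tested. At an unadjusted p under 0.05 by limma, 1 was higher and 0 lower in cKO, and the median log2 fold change was -0.09. These are 4.35% and 0% of the list, against 4.33% and 3.07% of all genes, so the share of higher genes was that of the background. The higher one was *Snhg18*, host of *Snord123*, with an FPKM of 5.44, 5.26 and 4.81 in Ctrl, against 10.3, 9.37 and 8.86 in cKO. The genotypes lay far apart for this gene, which was named after its values were seen. For it limma gave 0.77 on the log2 scale (standard error 0.0937) at an adjusted p of 0.274. No gene tested had a smaller adjusted p, but the adjustment can give several genes the same value, so *Snhg18* is not ranked first by it. *Snord123* itself had 9 reads over all samples and a log2 fold change of 0.02.

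The genes that make and trim these RNAs were read as 1 list. Of 48 listed, 47 were tested, with 0 higher and 1 lower in cKO at an unadjusted p under 0.05, or 2.13% lower against 3.07% of all genes, and a median log2 fold change of -0.05. The lower one was *Parn*, with an FPKM of 6.64, 8.34 and 7.38 in Ctrl, against 4.97, 4.61 and 6.15 in cKO; the difference was -0.44 on the log2 scale, at an adjusted p of 0.545 by limma. These levels cover the whole gene, so they do not measure exon 7, and islet cells other than β cells keep the gene. Among the 6 proteins of H/ACA particles, 4 had a lower mean log2 level and 0 passed. *Dkc1*, the pseudouridine synthase, had an FPKM of 4.46 ± 0.323 in Ctrl and 3.83 ± 0.189 in cKO (SD, n = 3 each) without overlap of the samples. The difference was -0.18 on the log2 scale, at an adjusted p of 0.756 by limma. Of the 47 genes, 5 had every cKO sample below every Ctrl sample (10.6% against 6.03% of all genes). They were *Dkc1*, *Coil*, *Tgs1*, *Pabpn1* and *Parn*. *Parn* is the gene deleted in the cKO mice, so its place in this count and as the lower gene above is no result about the list. For 1 gene every cKO sample was above every Ctrl sample (2.13% against 7.11%).

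The 4 core proteins of C/D particles all had a lower mean log2 level and 0 passed, and the log2 fold change of *Fbl*, the methyltransferase, was -0.10. For the 8 factors of C/D assembly the log2 fold changes ran from -0.06 to 0.26, with 0 passing. For the 8 genes of Cajal bodies, cap and export they ran from -0.20 to 0.15, with 0 passing. Of the 21 tested genes for oligo(A) tails and 3′ trimming, *Parn* alone passed; *Toe1*, a related deadenylase of Cajal bodies, had a log2 fold change of -0.21, and *Exosc10*, the nuclear exosome's exonuclease, one of 0.00 (*Dkc1*, *Fbl*, *Toe1* and *Exosc10* were chosen after their values were seen).

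Other small non-coding RNAs stood beside these. *Terc*, the telomerase RNA, is an H/ACA RNA too, and had 11, 12 and 4 reads in Ctrl and 10, 6 and 7 in cKO, an FPKM of 1.29 ± 0.642 and 1.03 ± 0.282 (SD, n = 3 each). The genotypes overlapped for *Terc*. *Rn7sk*, which holds back transcription elongation, had an FPKM of 8.66, 5.95 and 9.26 in Ctrl, against 6.53, 4.52 and 6.01 in cKO, -0.41 on the log2 scale, at an adjusted p of 0.694 by limma. *Rmrp* and *Rpph1*, the RNAs of the RNase MRP and RNase P particles, were listed at 0 in every sample.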

How the data were processed

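RNA-seq of islets from 3 Ctrl and 3 cKO samples was used. The authors deposited FPKM per gene, with zeros kept and replicates apart; per the labels, processing used GRCm38 (mm10). The aligner, counting rule and strand setting are not given in the sources used here. Reads were read back from FPKM, length and library size (100% whole within 0.02 reads). With these steps, 1 read on a short row moves its FPKM strongly, and intervals cover the spread between samples only. FPKM were compared as log2(FPKM + 1) with limma 3.58.1 in R 4.3.3 (trend, two-sided, Benjamini-Hochberg over all rows whose mean FPKM was at least 0.1). Hosts, exons and sequences came from GENCODE M21. Python 3.11.15, pandas 2.3.3 and matplotlib 3.10.9 were used, and the code was tested on simulated data. Members and lists were chosen with earlier results of these data known. Named rows were the 5 highest Snora and Snord, Scarna with a mean FPKM of at least 1, and the 5 smallest p in each direction at a mean of at least 10 reads, with hosts; other rows were named after their values were seen. Alternatives covered pseudocount, filter, scaling, trend, voom on reads, a replicate block and leaving out each sample. No column of per-sample values was left unused. One host gene is not reported here.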

Additional observations from a re-analysis of the deposited data

How the results depend on the processing

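No setting gave a small RNA an adjusted p under 0.05 by limma. The count of 7 rows lower at an unadjusted p under 0.05 was 4 with no filter, 1 at a mean of at least 10 reads (6 rows tested) and 2 with voom on the reads (*Snord43* and *Snora21*); leaving out 1 sample it was 4 (without cKO replicate 3) to 10, and the count of higher rows 0 to 1. For the pathway list, leaving out 1 sample gave 0 to 1 higher and 1 to 4 (without Ctrl replicate 3) lower. Over all genes, 14 had an adjusted p under 0.05 without Ctrl replicate 1. The Snord summed difference was 0.0362 without Ctrl replicate 2 (range -0.24 to 0.04), and the Snora difference ranged from -0.69 to -0.45, the Scarna difference from -0.64 to -0.30 and that of the log2 Snora to Snord ratio from -0.66 to -0.26 (-0.20 from mean log2 values). The cause was not tested.

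Directions turned for values near 0: *Snora17* with pseudocount 10 (-0.0002), and without Ctrl replicate 2 (-0.18), Ctrl replicate 3 (-0.20) or cKO replicate 1 (-0.29). Leaving out 1 sample, log2 fold changes ranged from -0.11 to 0.19 for *Snord104*, -0.18 to 0.45 for *Snord72*, -0.46 to 0.62 for *Snord58b*, -0.0863 to 0.48 for *Scarna2*, -0.0349 to 0.75 for *Snord49a* and -0.29 to 0.60 for *Snora17*. *Snora31* ranged from -0.43 (without cKO replicate 2, then past an unadjusted p under 0.05) to -0.13, and *Snora57* stayed between -0.92 and -0.68 and *Snora41* between -1.15 and -0.69.

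Same-numbered samples had correlations of -0.17, -0.02 and -0.07 of their deviations, and samples of different numbers had -0.08 to 0.13. No pairing by number was seen, but so few correlations cannot exclude one, and the labels name none. With the replicate as a block, *Snora57* had an unadjusted limma p of 0.00538 and 0 rows an adjusted p under 0.05. Depth limits single rows most: 44 of the 59 rows above 0 had a mean under 5 reads.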
